A study of Rattus norvegicus with 18 samples.

Results

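Gene expression in dorsal root ganglia of rats was compared between 6 libraries of a pain model, labelled NPP, and 6 libraries of sham animals, labelled Sham, out of 18 libraries in the series. NPP is not spelled out in the labels and is taken here as the rat model of neuropathic pain that the design text names. The libraries were chosen by their labels: NPP_herb, NPP_solvent, Sham_herb and Sham_solvent with 3 libraries each, fitted together with treatment as a covariate so that each NPP library was set against Sham libraries of its own treatment. Herb is taken as Shentong Zhuyu decoction, a mixture of 12 traditional medicines that the design text describes, and solvent as its vehicle. All 12 libraries therefore come from animals that received either the decoction or the vehicle. Ctrl_solvent and Ctrl, also with 3 libraries each, took no part in the fit and are given beside it for level. Strain, age, surgery, dose, time after surgery and the spinal level of the ganglia were not stated in the labels. Nothing in the labels says whether a library is 1 animal or a pool, so the p-values measure the spread between these libraries only.

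The dorsal root ganglion holds the cell bodies of sensory neurons, wrapped by satellite glia and joined by Schwann cells, fibroblasts, vessels and resident macrophages. When the peripheral axon of a sensory neuron is cut or crushed, the cell body switches on a set of genes that includes the transcription factors Atf3, Jun and Sox11, the growth cone gene Gap43 and the neuropeptides galanin, neuropeptide Y and VIP, and it commonly lowers ion channels and receptors of the intact state. Satellite glia around injured neurons raise Gfap, and macrophages gather. In a bulk sample, fewer cells of a type and less RNA per cell cannot be told apart.

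No gene differed between NPP and Sham at an adjusted p under 0.05. Of 16446 genes tested with edgeR's quasi-likelihood test, 0 were called (0%) and the smallest adjusted p was 0.998. At an unadjusted p under 0.05 there were 425 genes (2.58% of those tested), of which 253 were higher in NPP (1.54%) and 172 lower (1.05%). With no gene different, a share of about 0.05 would pass, so 2.58% is not an excess. The direction was even over the whole table, with a log2 fold change above 0 in 8118 genes (49.4%) and below 0 in 8328 (50.6%). The median standard error of a gene's log2 fold change was 0.13. Of the 14324 genes with a mean of at least 1 CPM (counts scaled to library size, in parts per megaread), 276 had a log2 fold change beyond 0.5 in either direction and 43 beyond 1. Because nothing was called, levels and fold changes are given below as measured values. In the edgeR fit over all 12 libraries each had an adjusted p that rounds to 0.998 or more. Within a single treatment, the smallest adjusted p in edgeR was 0.904 in solvent and 0.260 in herb libraries.

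**Figure D1:**
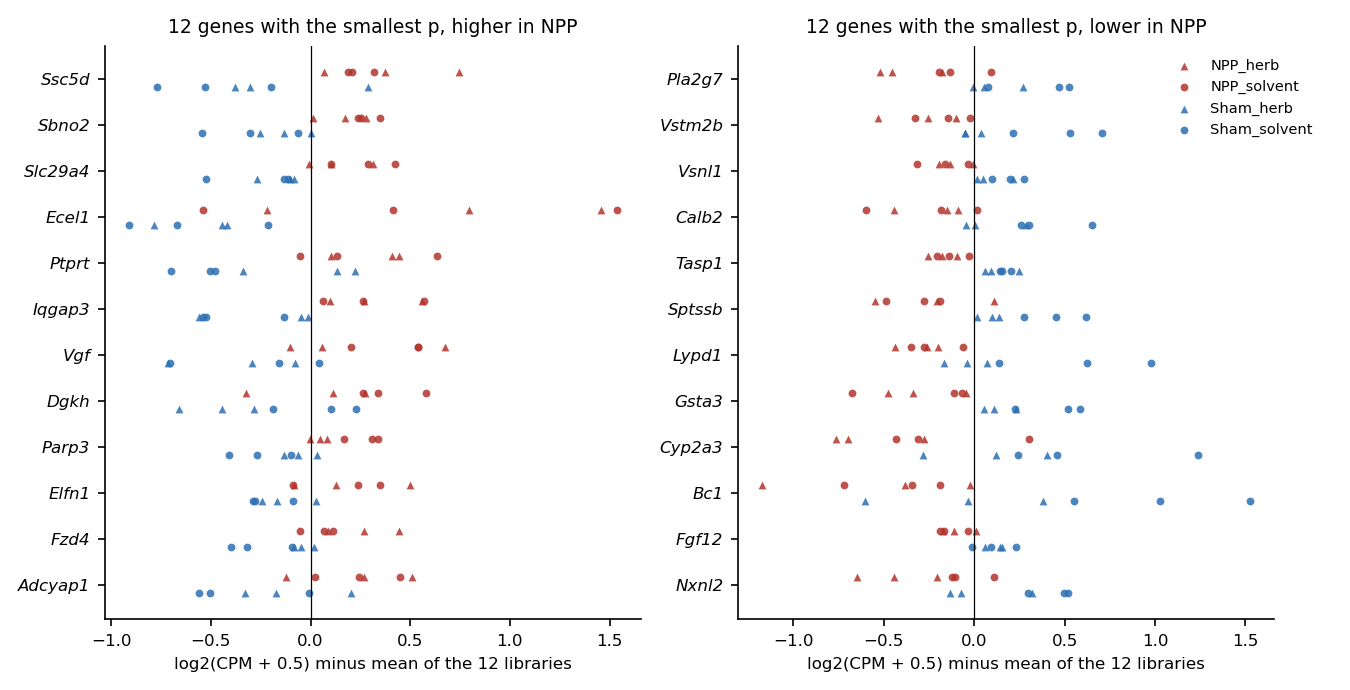
Level in every library of the 12 genes per direction that ranked first by unadjusted p, as log2(CPM + 0.5) centred on each gene's average of all 12 libraries, with NPP libraries (red) above Sham libraries (blue) and triangles for herb and circles for solvent. In 6 of the 24 genes the NPP and Sham libraries did not overlap.

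Depth was 18.3 to 36.3 M counted reads in NPP and 25.8 to 50.3 M in Sham libraries. Library profiles were alike: across genes, on log2 CPM, the median correlation was 0.980 between an NPP and a Sham library and 0.977 between libraries of the same state. None of 8 technical measures (depth, genes detected, shares of mitochondrial, ribosomal protein, hemoglobin, ribosomal RNA and top 10 gene reads, and the slope of level on gene length) passed an exact permutation test within treatment, in which the smallest possible p was 0.005 and the smallest adjusted p was 0.58. The test compares group means and does not speak to single libraries. Sham_solvent 1 and Sham_solvent 3 stood highest on the first principal component (58.5 and 30.5), which held 24.8% of the variance. Sham_solvent 1 also had the lowest slope of level on gene length (-0.216) and the highest ribosomal protein share (3.55%) of the 12 libraries. A fit with the slope on gene length as a covariate, given below among the alternatives, called 0 genes. The part of library quality in the differences was not tested beyond that fit. The labelled tissue matched its markers: the summed level of 13 neuronal genes was 13977 to 17083 CPM in NPP and 14007 to 17052 CPM in Sham libraries, and that of 16 myelinating Schwann cell genes 11649 to 16265 CPM in NPP and 11469 to 16200 CPM in Sham libraries.

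Several libraries stood apart on genes of nerve injury, and not along their labels. Npy, which encodes neuropeptide Y and is close to silent in intact sensory neurons, had 61.8, 173 and 1.24 CPM in NPP_herb libraries 1 to 3 and 120, 57.9 and 3.20 CPM in NPP_solvent libraries. It had 1.64, 1.74 and 112 CPM in Sham_herb libraries and 2.80, 2.74 and 29.4 CPM in Sham_solvent libraries. Outside the comparison, it had 1.89, 1.78 and 195 CPM in Ctrl_solvent libraries and 1.18, 1.40 and 0.618 CPM in Ctrl libraries. Replicate 3 of both NPP groups thus lay near the Ctrl libraries, while replicate 3 of Sham_herb, Sham_solvent and Ctrl_solvent lay well above the other libraries of their groups. The log2 fold change of Npy was 1.70 ± 1.42 (SE), and it was 3.52 without Sham_herb replicate 3 and 1.20 without NPP_solvent replicate 1. No library was moved or removed on these levels, and whether a label and a library were exchanged was not tested.

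Among the transcription factors of the injury response, Atf3 and Jun had higher means in NPP and overlapped between the groups. Atf3, the classic nuclear marker of an injured sensory neuron, averaged 50.9 ± 38.3 CPM in NPP and 22.3 ± 17.2 CPM in Sham libraries (SD, n = 6 each). Its log2 fold change was 1.20 ± 0.66, with a 95% interval of -0.27 to 2.67 that includes 0, and it lay between 0.82 and 1.71 with 1 library left out. Jun, an AP-1 subunit that pairs with Atf3, had 111, 133 and 93.9 CPM in NPP_herb and 142, 106 and 86.0 CPM in NPP_solvent libraries, against 80.9, 77.4 and 110 CPM in Sham_herb and 73.9, 88.6 and 101 CPM in Sham_solvent libraries. All 6 NPP libraries were above the Sham median of 84.7 CPM, yet the groups overlapped, and the log2 fold change was 0.34 ± 0.14 (unadjusted p = 0.0269 in edgeR). Sox11, a factor of axon regrowth, had medians of 1.95 CPM in NPP and 1.14 CPM in Sham libraries (log2 fold change 0.64 ± 0.36), and Stat3, which carries cytokine signals to the nucleus, 218 CPM in NPP and 204 CPM in Sham libraries (0.13 ± 0.08).

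Of the effectors of that response, Ecel1 had the smallest p. Ecel1, an endopeptidase of neurons known to be induced by nerve injury, had 6.49, 10.6 and 2.96 CPM in NPP_herb and 11.2, 4.87 and 2.27 CPM in NPP_solvent libraries, against 1.84, 2.46 and 2.51 CPM in Sham_herb and 1.65, 2.04 and 2.98 CPM in Sham_solvent libraries. The 2 lowest NPP libraries, again replicate 3 of each treatment, lay within the Sham range of 1.65 to 2.98 CPM, and the other NPP libraries lay above it. Its log2 fold change was 1.497 ± 0.38, with a 95% interval of 0.68 to 2.31, and it was 1.54 in herb and 1.45 in solvent libraries. Unadjusted p was 0.00172 in edgeR. Outside the comparison it reached 6.48 CPM in Ctrl_solvent and 5.23 CPM in Ctrl libraries, above the whole Sham range. Sprr1a, a regeneration-associated protein almost absent from intact ganglia, had 1.18, 2.41 and 0.0287 CPM in NPP_herb and 1.23, 0.828 and 0.164 CPM in NPP_solvent libraries. It had 0.0288, 0 and 0.816 CPM in Sham_herb and 0, 0.0392 and 0.373 CPM in Sham_solvent libraries. Its fitted log2 fold change of 2.21 ± 1.02 rests on few reads and depends on the prior count, and it ranged from 1.74 to 3.36 with 1 library left out. Gap43, a growth cone protein, had medians of 412 CPM in NPP and 380 CPM in Sham libraries (0.27 ± 0.16), and Csf1, the growth factor by which injured neurons call microglia and macrophages, 19.4 CPM in NPP and 17.0 CPM in Sham libraries (0.26 ± 0.16).

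**Figure D2:**
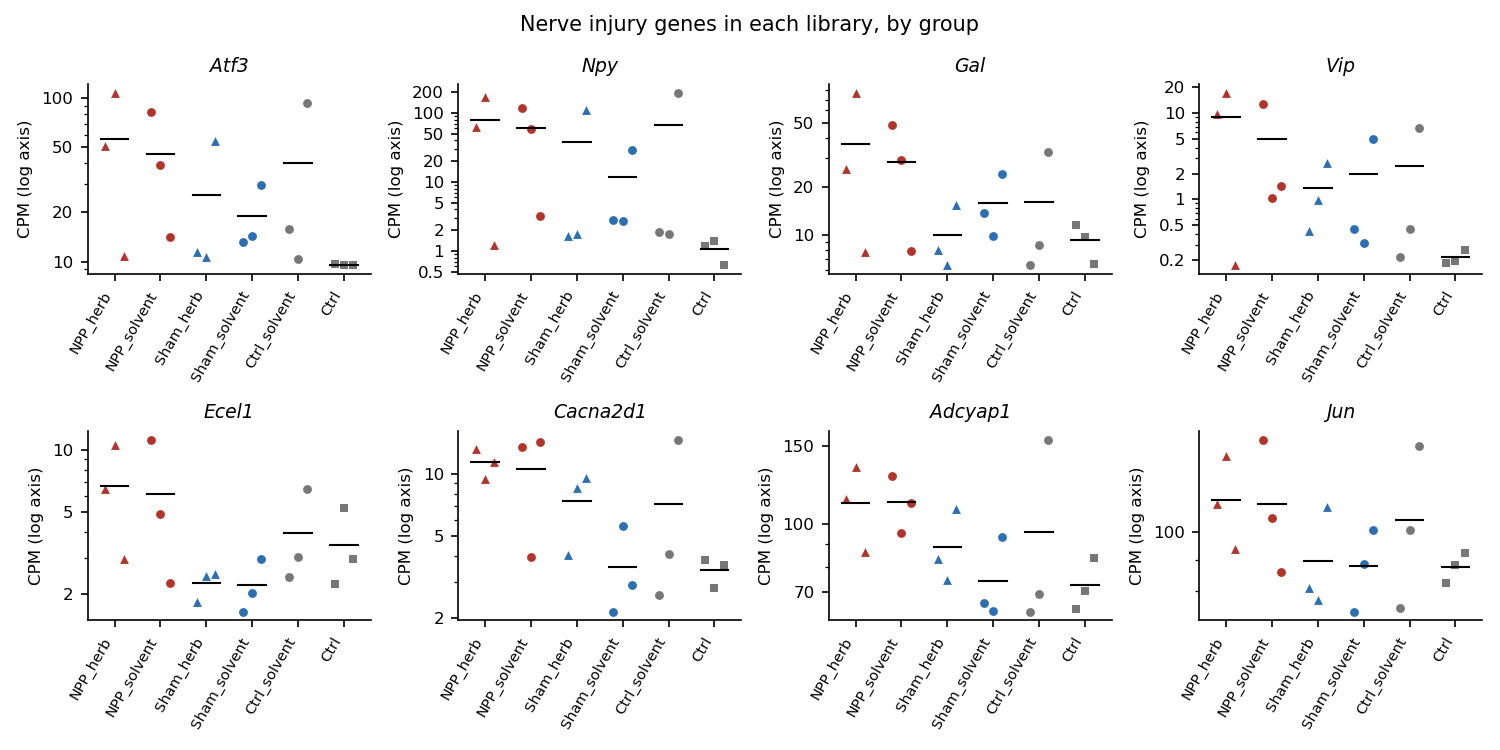
Level of genes of the nerve injury response in every library of all 6 groups, as CPM on log axes, with bars at group means, the NPP groups left of the Sham groups and the Ctrl groups last. The third libraries of NPP_herb and NPP_solvent lie low, and those of Sham_herb and Ctrl_solvent lie high, for Npy and Atf3.

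The neuropeptides of injury varied in the same uneven way. Gal, which encodes galanin, had 25.7, 76.8 and 7.85 CPM in NPP_herb and 48.2, 29.3 and 7.85 CPM in NPP_solvent libraries, against 8.03, 6.48 and 15.2 CPM in Sham_herb and 13.7, 9.77 and 24.1 CPM in Sham_solvent libraries. The 4 NPP libraries numbered 1 and 2 lay above every Sham library, and the other 2 among the lowest Sham libraries. The log2 fold change was 1.36 ± 0.61, and 0.80 without NPP_herb replicate 2. Vip, encoding vasoactive intestinal peptide, had a median of 5.59 CPM (0.172 to 17.1) in NPP and 0.719 CPM (0.313 to 5.08) in Sham libraries, and its log2 fold change was 2.04 ± 1.10 (1.38 to 3.10 with 1 library left out). Adcyap1, encoding the related peptide PACAP, had 113, 134 and 86.3 CPM in NPP_herb and 128, 95.5 and 111 CPM in NPP_solvent libraries, against 83.2, 74.8 and 108 CPM in Sham_herb and 66.1, 63.6 and 93.3 CPM in Sham_solvent libraries. All 6 NPP libraries were above the Sham median of 79.0 CPM, with a log2 fold change of 0.46 ± 0.14 (95% interval 0.16 to 0.76) that lay between 0.39 and 0.54 with 1 library left out. Outside the comparison, Adcyap1 had 155 CPM in Ctrl_solvent 3, above every NPP library, and 63.3 and 69.5 CPM in Ctrl_solvent 1 and 2.

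Vgf encodes a secreted neuronal protein whose fragments include peptides studied in pain. It had 56.0, 96.5 and 62.8 CPM in NPP_herb and 87.8, 69.4 and 88.0 CPM in NPP_solvent libraries, against 49.1, 36.5 and 57.1 CPM in Sham_herb and 54.0, 36.8 and 62.2 CPM in Sham_solvent libraries. NPP_herb 1 lay inside the Sham range, and the other 5 NPP libraries above it, NPP_herb 3 by a small margin. The log2 fold change was 0.64 ± 0.16, with a 95% interval of 0.28 to 0.99. In the groups outside the comparison Vgf reached 122 CPM in Ctrl_solvent and 152 CPM in Ctrl libraries, above every NPP library.

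The first 300 bases around the annotated start of Vgf, Ecel1 and Sprr1a are shown as examples of neuronal genes described above, because Jun and Atf3 act on AP-1 (TGANTCA) and CRE (TGACGTCA) motifs. Vgf and Ecel1 are among the 12 genes higher in NPP with the smallest p. Sprr1a had the highest log2 fold change of the 18 injury stress genes given below. The sequences are from RefSeq on GRCr8, another build than that of the counts, and run 5′ to 3′ on the gene's strand from 250 bases before to 50 after the start, with motif matches on either strand in capitals. Vgf is at chr12:25276971-25277270, Ecel1 at chr9:95274523-95274822 and Sprr1a at chr2:180752576-180752875, all on the minus strand.
Vgf: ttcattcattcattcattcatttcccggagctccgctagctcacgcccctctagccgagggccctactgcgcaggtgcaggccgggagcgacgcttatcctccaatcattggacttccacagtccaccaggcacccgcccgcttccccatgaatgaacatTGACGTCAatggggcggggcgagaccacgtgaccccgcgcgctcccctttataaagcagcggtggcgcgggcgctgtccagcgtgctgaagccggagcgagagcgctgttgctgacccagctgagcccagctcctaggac
Ecel1: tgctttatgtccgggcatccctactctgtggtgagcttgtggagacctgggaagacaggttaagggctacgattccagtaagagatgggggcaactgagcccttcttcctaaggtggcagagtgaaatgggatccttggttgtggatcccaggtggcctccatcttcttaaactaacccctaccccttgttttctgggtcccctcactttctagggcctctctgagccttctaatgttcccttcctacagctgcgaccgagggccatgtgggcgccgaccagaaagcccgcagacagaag
Sprr1a: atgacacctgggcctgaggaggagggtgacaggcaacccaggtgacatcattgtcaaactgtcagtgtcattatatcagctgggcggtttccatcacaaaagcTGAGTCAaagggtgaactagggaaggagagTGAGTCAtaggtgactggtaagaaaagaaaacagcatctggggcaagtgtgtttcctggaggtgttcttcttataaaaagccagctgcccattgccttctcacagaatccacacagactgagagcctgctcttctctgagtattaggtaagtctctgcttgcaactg
Vgf holds a CRE match at position -90 from the start, Sprr1a holds AP-1 matches at positions -147 and -117, and Ecel1 holds neither motif in this window. Of the 8 promoters searched, Gal, Npy, Vip and Adcyap1 also hold no exact match to either, and Pla2g7, with lower levels in NPP, holds an AP-1 match at position -115. Variants of a motif were not counted, and the Vip window holds TGACGTCT, which differs from the CRE motif in its last base only. Over 27457 RefSeq promoters of the same length, 7.33% hold the AP-1 motif and 1.91% the CRE motif. Promoters of Atf3 and Jun were not used here.

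Over the whole list of 18 injury stress genes, 16 had a log2 fold change above 0 (against 49.4% of all genes), with a median of 0.32 beside -0.00224 over all genes tested. Of these, 2 genes, Ecel1 and Jun, had an unadjusted p under 0.05 in edgeR, beside 2.58% of all genes tested. Of 9 injury peptides and their receptors, 7 were above 0, with a median of 0.32, and Adcyap1 alone had an unadjusted p under 0.05. The exceptions were Cck (-0.58) and Crh (-0.10). These medians were alike in both treatments for the stress genes, at 0.34 in herb and 0.28 in solvent libraries. The lists were chosen for their known part in nerve injury with earlier results of these data known, and no test was made of a list as a whole.

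Of the receptors and channels of pain-sensing neurons, 19 of 25 nociceptor genes were above 0 with a median log2 fold change of 0.14, with 14 above 0 in herb (median 0.05) and 19 in solvent libraries (median 0.23). Trpa1, the channel opened by irritants, had 43.3, 30.6 and 45.4 CPM in NPP_herb and 40.1, 22.7 and 56.5 CPM in NPP_solvent libraries, against 20.9, 34.6 and 34.0 CPM in Sham_herb and 11.6, 28.7 and 19.7 CPM in Sham_solvent libraries. The groups overlapped, and the log2 fold change was 0.70 ± 0.27. Oprm1, the mu opioid receptor, had medians of 0.655 CPM in NPP and 0.379 CPM in Sham libraries (0.97 ± 0.41), from few reads. Nppb, a peptide of itch-sensing neurons, was at 1.93 ± 0.77 with NPP_solvent 3 and at 0.47 without it. Trpv1, the capsaicin receptor, had medians of 89.1 CPM in NPP and 75.2 CPM in Sham libraries (0.26 ± 0.13), and it differed by 0.50 in solvent and 0.03 in herb libraries. The peptide genes Calca and Tac1, which mark peptidergic nociceptors, had log2 fold changes of 0.14 ± 0.10 and 0.22 ± 0.12. P2rx3, the ATP receptor of nonpeptidergic nociceptors, had 0.09 ± 0.09.

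Cacna2d1 encodes the calcium channel subunit bound by gabapentin and is known to increase in ganglia after nerve injury. It had 13.2, 9.40 and 11.5 CPM in NPP_herb and 13.5, 3.94 and 14.3 CPM in NPP_solvent libraries, against 4.06, 8.53 and 9.50 CPM in Sham_herb and 2.14, 5.58 and 2.88 CPM in Sham_solvent libraries. All but NPP_herb 2 and NPP_solvent 2 lay above every Sham library. The log2 fold change was 1.09 ± 0.36, with a 95% interval of 0.30 to 1.88 and an unadjusted p of 0.0108 in edgeR. It was 0.64 in herb and 1.56 in solvent libraries. In contrast with Npy, replicate 3 of both NPP groups was not low. Ctrl libraries had 2.81 to 3.83 CPM, and Ctrl_solvent 3 had 14.7 CPM. Of 14 calcium channel genes 12 were above 0 (median 0.11), of 12 sodium channel genes 8 (median 0.04) and of 37 potassium channel genes 22 (median 0.02). These counts differed by treatment. Of the calcium channel genes 7 were above 0 in herb (median -0.0086) and 12 in solvent libraries (median 0.22). Of the sodium channel genes 4 were above 0 in herb (median -0.018) and 9 in solvent libraries (median 0.19). Of the potassium channel genes 13 were above 0 in herb (median -0.07) and 25 in solvent libraries (median 0.08). Scn3b, a beta subunit of sodium channels, had a log2 fold change of 0.28 ± 0.13, and Scn10a, the nociceptor channel Nav1.8, 0.22 ± 0.14. The potassium channel genes Kcns1 and Kcnc1, both of large neurons, were at -0.24 ± 0.10 and -0.28 ± 0.13.

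Some genes of large, myelinated sensory neurons had lower levels in NPP libraries, and others had higher levels. Vsnl1, encoding the calcium sensor visinin-like protein 1, had a median of 212 CPM (188 to 234) in NPP and 260 CPM (237 to 285) in Sham libraries, without overlap. Its log2 fold change was -0.28 ± 0.07, and Ctrl_solvent 3 had 188 CPM, the level of the lowest NPP library. Calb2, encoding the calcium binder calretinin, had a median of 51.4 CPM (38.1 to 58.4) in NPP and 69.96 CPM (55.9 to 91.3) in Sham libraries, with a log2 fold change of -0.48 ± 0.12. Hapln1, a link protein of the extracellular matrix, was at -0.37 ± 0.15 and the neurofilament gene Nefh at -0.15 ± 0.10. Calb2 is not among the 18 genes of the large neuron list. Of those 18 genes, 10 were below 0 and 8 above, among them Calb1 (0.34 ± 0.20) and Ntrk2 (0.13 ± 0.08). The median was -0.07, so the list as a whole was near 0.

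Outside these groups, Pla2g7 had the smallest p of the genes named. Pla2g7, a secreted phospholipase that degrades platelet-activating factor, had 49.5, 51.7 and 62.7 CPM in NPP_herb and 62.1, 75.7 and 64.8 CPM in NPP_solvent libraries, against 85.9, 73.7 and 70.8 CPM in Sham_herb and 74.9, 103 and 98.6 CPM in Sham_solvent libraries. The herb libraries did not overlap, and of all NPP libraries only NPP_solvent 2 reached into the Sham range. The share of all genes that separate within a single treatment was not counted. The log2 fold change was -0.47 ± 0.09 (95% interval -0.67 to -0.26, unadjusted p = 0.000223 in edgeR). Ctrl libraries had 71.8 to 83.6 CPM, and Ctrl_solvent 3 had 46.7 CPM.

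Sbno2, a transcriptional co-regulator known from the response of macrophages to interleukin 10, had a median of 16.7 CPM (14.1 to 17.97) in NPP and 12.2 CPM (9.43 to 14.01) in Sham libraries, without overlap, and a log2 fold change of 0.44 ± 0.10. Ctrl_solvent 3 had 28.7 CPM, above every NPP library. Slc29a4, a monoamine transporter, had a median of 15.8 CPM (13.7 to 18.6) in NPP and 12.6 CPM (9.38 to 12.95) in Sham libraries, also without overlap (0.42 ± 0.11). Tasp1, a protease that processes the methyltransferase MLL, had a median of 10.01 CPM (9.31 to 10.998) in NPP and 12.5 CPM (11.7 to 13.4) in Sham libraries (-0.31 ± 0.08). Its Ctrl libraries had 9.19 to 12.5 CPM and so spanned both groups. Iqgap3, a scaffold protein of dividing cells, was above Sham in all 6 NPP libraries at 2.73 to 4.08 CPM against 1.59 to 2.56 CPM (0.72 ± 0.19), and Gsta3, a glutathione transferase, was below it at 1.19 to 2.13 CPM against 2.31 to 3.56 CPM (-0.69 ± 0.19).

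These 6 were among 22 genes whose NPP and Sham libraries did not overlap (0.134% of those tested), 10 higher in NPP (0.0608%) and 12 lower (0.073%). Whether 22 is more than relabelled libraries would give was not tested. Others of the 22, named after their values were seen, were Colgalt1, a collagen glycosyltransferase, at 49.6 to 56.4 CPM in NPP and 44.1 to 49.0 CPM in Sham libraries, and Bnip3l, a mitophagy receptor, at 168 to 178 CPM in NPP and 186 to 205 CPM in Sham libraries. The further genes of the top 12 higher in NPP were Ssc5d (log2 fold change 0.64 ± 0.15), Ptprt (0.57 ± 0.15), Dgkh (0.42 ± 0.11), Parp3 (0.32 ± 0.09), Elfn1 (0.37 ± 0.11) and Fzd4 (0.32 ± 0.10). Those lower in NPP were Vstm2b (-0.48 ± 0.12), Sptssb (-0.56 ± 0.15), Lypd1 (-0.56 ± 0.15), Cyp2a3 (-0.91 ± 0.26), the noncoding RNA Bc1 (-1.13 ± 0.32), Fgf12 (-0.22 ± 0.06) and Nxnl2 (-0.62 ± 0.19). Of the 12 libraries, Sham_solvent 1 was highest for Vstm2b (21.3 CPM), Cyp2a3 (5.52 CPM), Bc1 (9.64 CPM), Fgf12 (385 CPM) and Nxnl2 (2.55 CPM), but not for Sptssb or Lypd1.

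Among glia, Gfap, the filament protein that satellite glia raise around injured neurons, had 24.6, 17.5 and 10.6 CPM in NPP_herb and 21.4, 19.1 and 15.6 CPM in NPP_solvent libraries, against 14.9, 11.2 and 13.5 CPM in Sham_herb and 12.5, 11.02 and 7.72 CPM in Sham_solvent libraries. It was above every Sham library in 5 of 6 NPP libraries, with a log2 fold change of 0.63 ± 0.19 (unadjusted p = 0.00637 in edgeR). Outside the comparison, Gfap had 27.4 and 35.0 CPM in Ctrl_solvent 1 and 3, above every NPP library, and 7.73 CPM in Ctrl_solvent 2. Ctrl libraries had 7.80 to 14.3 CPM. Kcnj10, the satellite glia potassium channel, was at 0.10 ± 0.07, and 10 of 14 satellite glia genes were above 0 with a median of 0.04. Of 16 myelin genes 8 were above 0 (median -0.0031). Of 10 repair Schwann cell genes tested 9 were above 0 (median 0.18), 6 in herb (median 0.06) and 10 in solvent libraries (median 0.28). Ngfr, the neurotrophin receptor that denervated Schwann cells carry, had medians of 638 CPM in NPP and 568 CPM in Sham libraries (0.19 ± 0.07). In the reverse order to its list, Ngfr was at 0.27 in herb and 0.10 in solvent libraries. Which cells held its reads was not tested. Of 21 cell cycle genes 17 were above 0 (median 0.28). Beside 2.58% of all genes tested, 4 of the 21 had an unadjusted p under 0.05 in edgeR: Top2a (0.82 ± 0.31), Aurkb (0.84 ± 0.31), Prc1 (0.64) and Mcm2 (0.31). These are expressed at a low level, with Top2a at a median of 2.01 CPM in NPP and 1.19 CPM in Sham libraries. Outside the comparison, Top2a had 4.92, 1.91 and 7.39 CPM and Aurkb 2.76, 1.16 and 3.61 CPM in Ctrl_solvent libraries. Libraries 1 and 3 of that group lay above every NPP library for both genes.

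**Figure D3:**
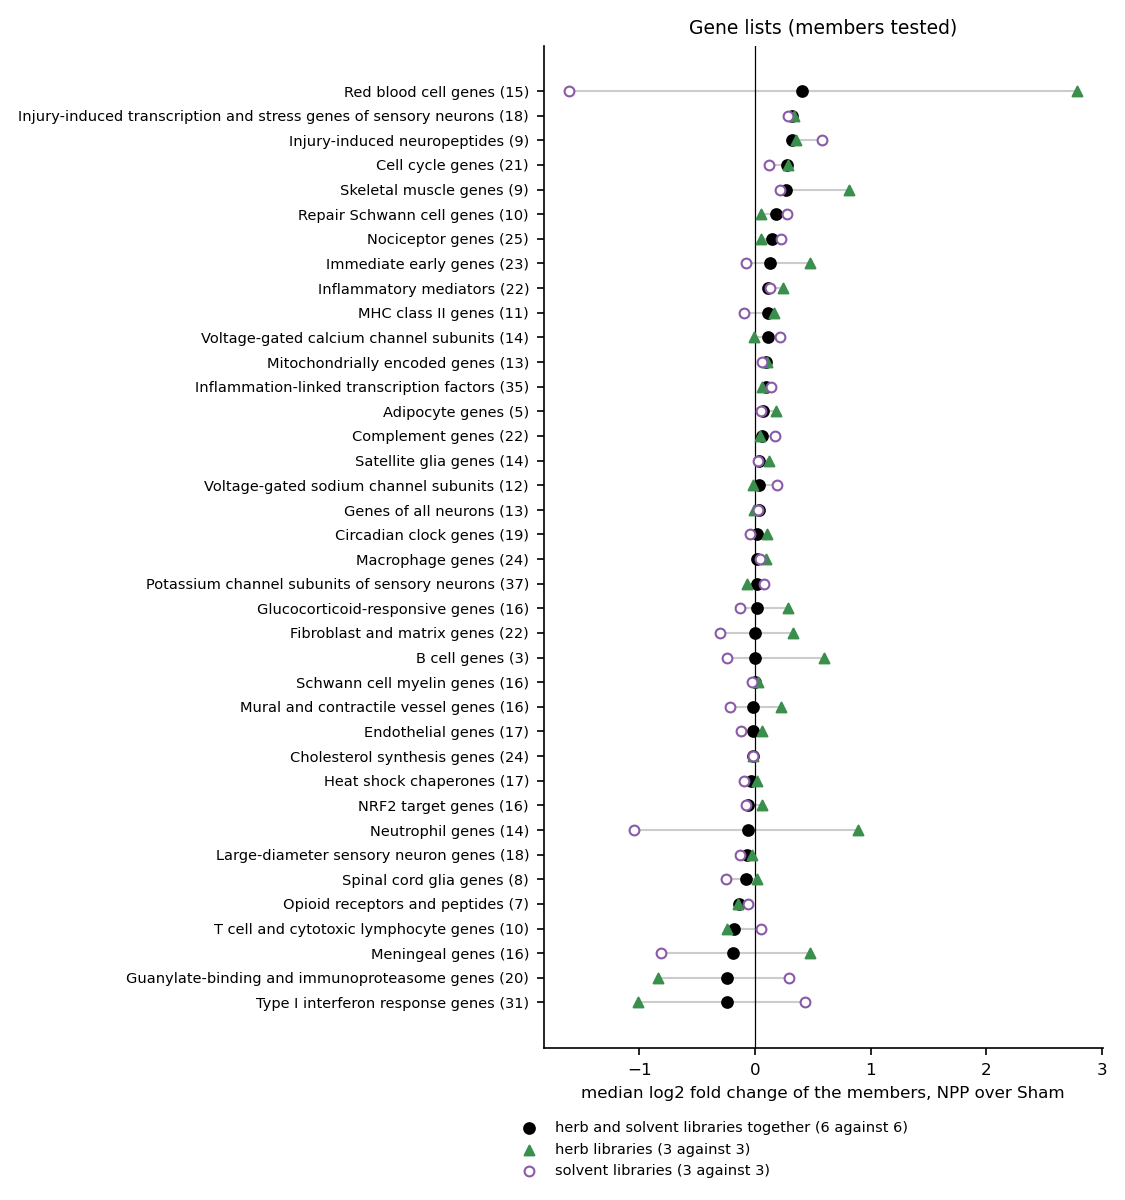
Median log2 fold change of NPP over Sham over the tested members of each gene list (number in brackets), for all 12 libraries (black), herb libraries (triangles) and solvent libraries (open circles). Medians over all 12 libraries lie between -0.24 and 0.41, and 7 of 38 are beyond 0.2 in either direction.

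Inflammatory genes, which the series title names, showed no call. Cd68, a lysosomal marker of macrophages, had medians of 4.22 CPM in NPP and 3.89 CPM in Sham libraries (0.37 ± 0.31), and 14 of 24 macrophage genes were above 0 with a median of 0.02. Ccl2, the chemokine that draws monocytes, had medians of 15.5 CPM in NPP and 15.7 CPM in Sham libraries (0.19 ± 0.22). Il1b, encoding interleukin 1 beta, had 1.72, 6.38 and 0.834 CPM in NPP_herb and 1.30, 1.07 and 1.07 CPM in NPP_solvent libraries, against 1.30, 1.44 and 0.620 CPM in Sham_herb and 0.206, 1.06 and 1.39 CPM in Sham_solvent libraries, so that a single library held the excess (0.88 ± 0.51). Tnf had too few reads for the test, at 0 to 8 reads in each NPP and 1 to 11 in each Sham library. Of 22 inflammatory mediators tested 14 were above 0 (median 0.11), and of 35 inflammatory transcription factors tested 25 (median 0.09).

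For several groups of genes the medians had opposite signs in herb and solvent libraries. The interferon-response list had a median log2 fold change of -0.24 over all libraries, with -1.01 in herb and 0.43 in solvent libraries. In herb libraries 0 of 31 interferon genes were above 0, and in solvent libraries 30 of 31. Isg15, a ubiquitin-like protein induced by interferon, had 5.42, 5.37 and 4.02 CPM in NPP_herb libraries, against 33.2, 22.02 and 4.83 CPM in Sham_herb libraries. It had 107, 123 and 2.02 CPM in NPP_solvent libraries, against 21.6, 86.6 and 9.41 CPM in Sham_solvent libraries. Within each of the NPP_solvent, Sham_herb and Sham_solvent groups the level varied several-fold, and replicate 3 was the lowest in all of these groups. The log2 fold change of Isg15 was -0.43 ± 1.08 over both treatments, and the difference between treatments was -2.99 ± 1.86 (adjusted p = 0.925 in edgeR's interaction test).

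Neutrophil genes had the reverse signs: 14 of 14 were above 0 in herb libraries (median 0.89) and 0 of 14 in solvent libraries (median -1.04). S100a8, a neutrophil calcium binder, had 25.4, 35.9 and 34.7 CPM in NPP_herb libraries, against 11.1, 35.0 and 19.98 CPM in Sham_herb libraries. It had 14.3, 16.5 and 16.1 CPM in NPP_solvent libraries, against 37.5, 31.1 and 58.2 CPM in Sham_solvent libraries. The solvent groups did not overlap and the herb groups did. Full separation is easier with 3 libraries against 3 than with 6 against 6, and its share over all genes was not counted. The difference between treatments for S100a8 was 1.98 ± 0.50 (adjusted p = 0.925 in edgeR's interaction test). Red blood cell genes split likewise, with 13 of 15 above 0 in herb (median 2.79) and 1 of 15 in solvent libraries (median -1.61). Their summed level ran from 27.6 to 773 CPM in NPP and from 32.0 to 841 CPM in Sham libraries, and the highest library was NPP_herb 3 in the NPP group and Sham_solvent 3 in the Sham group. Genes of the meninges were above 0 in 14 of 16 in herb (median 0.47) and 0 of 16 in solvent libraries (median -0.82). Skeletal muscle genes, which mark tissue carried along at dissection, were above 0 in 8 of 9 over all libraries (median 0.27). The exception was Pvalb, a calcium binder that large sensory neurons also express, at 181 to 283 CPM in NPP and 195 to 507 CPM in Sham libraries. The other 8 genes summed to 10.8 to 26.7 CPM in NPP and 9.87 to 22.7 CPM in Sham libraries, ranges that overlap. The part of these cell types in the other differences was not tested.

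Immediate early genes, which neurons switch on within minutes of activity or of tissue handling, were above 0 in 21 of 23 over all libraries (median 0.13), in 22 in herb (median 0.47) and in 8 in solvent libraries (median -0.08). Fosb had 3.11, 11.4 and 0.517 CPM in NPP_herb and 4.24, 0.828 and 0.356 CPM in NPP_solvent libraries, against 0.403, 0.303 and 0.686 CPM in Sham_herb and 1.56, 0.920 and 0.847 CPM in Sham_solvent libraries. NPP_herb 2 was highest, as it was for Atf3, Npy and Gal, and without it the log2 fold change of Fosb was 1.21 instead of 1.99.

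**Figure D4:**
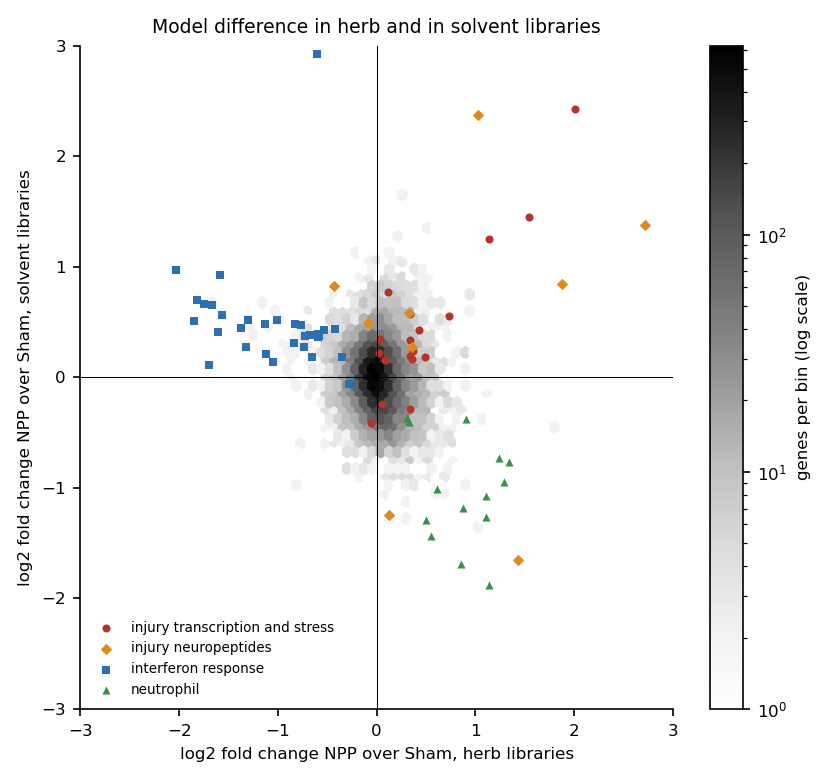
Log2 fold change of NPP over Sham in herb libraries against that in solvent libraries, for members of selected gene lists (symbols), over the density of the 14324 genes at 1 CPM or more (grey), 16 of which lie outside the axes. Of 31 interferon genes, 31 lie left of 0 in herb and 30 above 0 in solvent libraries, and neutrophil genes lie at the reverse.

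Tested gene by gene, the difference between treatments gave 0 calls of 16446 (0%) with edgeR, with a smallest adjusted p of 0.856 and 539 genes at an unadjusted p under 0.05 (3.28%). DESeq2 called 10 of the 16446 genes for the same term, and which genes these were is not given here. Within a treatment, NPP against Sham gave 0 calls (0%) in both. The unadjusted p was under 0.05 in 399 genes in herb (2.43%) and in 527 in solvent libraries (3.2%). Across genes, which are not independent replicates, the log2 fold changes of the treatments, which share no library, correlated at -0.11, and 46.0% of genes had the same sign in both. Of the 38 lists, 16 had medians of the same sign in both treatments and 22 had medians of opposite sign. In all 24 genes with the smallest p the sign was the same in both, which a ranking on the additive model favours.

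**Figure D5:**
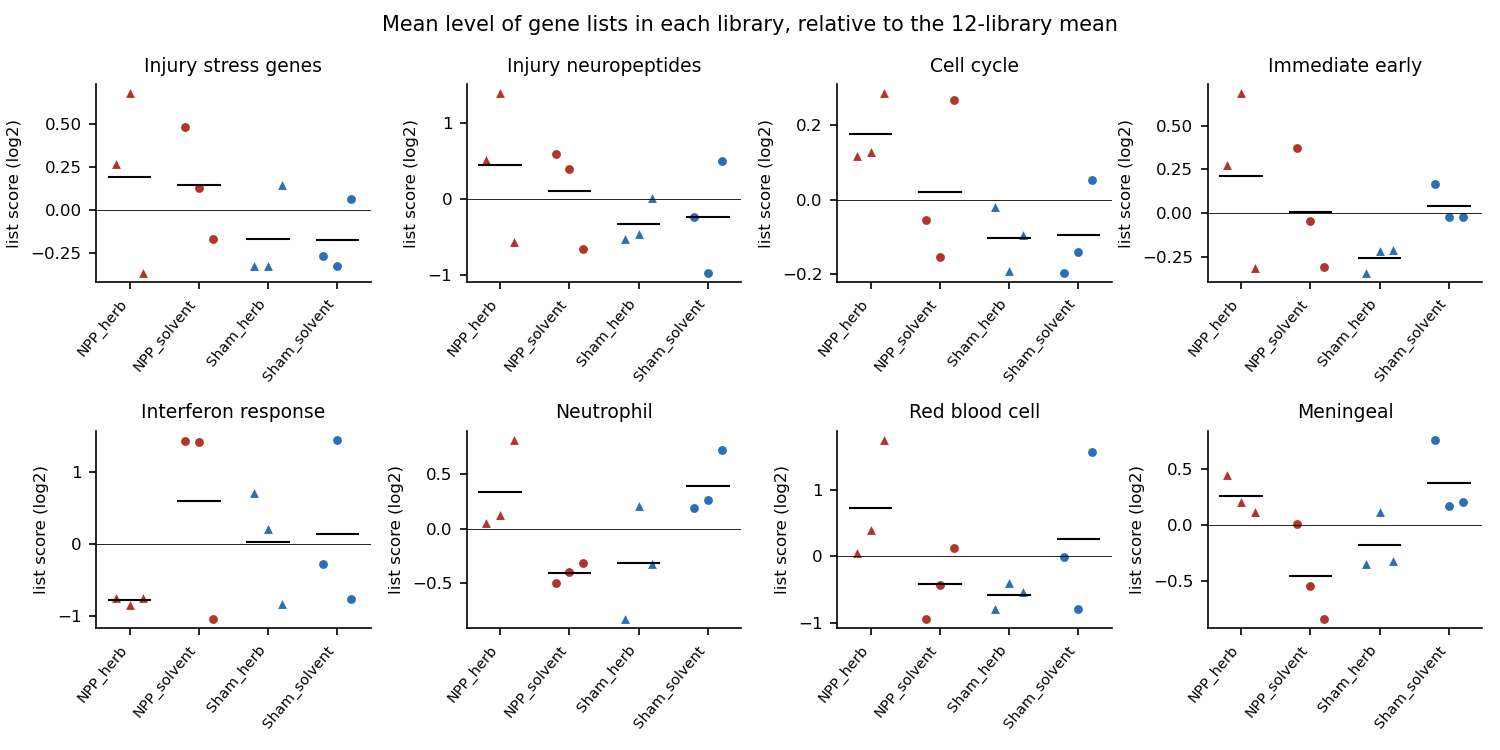
Score of selected gene lists in each of the 12 libraries with bars at group means, as log2(CPM + 0.5) centred on each gene's average of all 12 libraries and averaged over the list, with NPP left of Sham. In none of the 38 lists did the NPP and Sham scores separate.

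The spread within groups can be read from these scores. The injury stress score had a median of 0.20 (-0.37 to 0.68) in NPP and -0.30 (-0.33 to 0.15) in Sham libraries, and the interferon score a median of -0.75 (-1.05 to 1.44) in NPP and -0.03 (-0.83 to 1.45) in Sham libraries. The nociceptor score had a median of 0.01 (-0.05 to 0.38) in NPP and -0.07 (-0.23 to 0.02) in Sham libraries. For the interferon list the range inside each state was thus several times the distance between the medians.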

How the data were processed

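Poly(A)-selected RNA of 12 dorsal root ganglion libraries was read on an Illumina NovaSeq, per the labels' protocols. The submitters' processing notes list HISAT2, DESeq2 and mRatBN7.2, with no roles. Neither the read counter nor its strand setting or annotation is given in the sources used here, and overlapping, antisense and near-identical genes may share reads. The deposited count table holds raw whole-number reads for 25678 genes, and the deposited FPKM table the authors' values scaled by gene length and depth for 25557 genes, used only as an alternative. filterByExpr in edgeR 4.0.16 (R 4.3.3) kept 16446 genes, and the 9232 removed held at most 0.0533% of a library. The test was edgeR's quasi-likelihood F test with robust dispersion and TMM scaling, on treatment plus state (9 residual degrees of freedom), 2-sided, with Benjamini-Hochberg adjustment over all genes at 0.05. Printed levels are CPM on TMM factors of all 18 libraries, and fold changes are NPP over Sham with standard errors. Depth of 18.3 to 50.3 M reads and the number of libraries limit precision. The code was tested on simulated data.

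Named genes were the 12 per direction with the smallest unadjusted p among genes of at least 1 CPM with a symbol (none passed the adjusted threshold), the 2 members of each list with the smallest p and a fixed set of 26, 25 of them tested and 1 of these not reported here; of these and of the no-overlap genes the ones that carry a comparison are printed. The members, lists and tests were chosen with earlier results of these data known. Alternatives were other scaling and tools (DESeq2 1.42.0, limma 3.58.1), FPKM on log2 with a pseudocount, covariates, single treatments and leaving out each library. Replicate numbers carry no stated pairing. No replicate pair was a duplicate (chi-square over degrees of freedom at least 12.8).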

Additional observations from a re-analysis of the deposited data

Results flagged for a closer look

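In each group of 6 libraries, the highest or lowest value was compared with the others by the gap to its nearest neighbour over the whole range, with Dixon's 95% critical value for 6 libraries. Of 244 groups tested, 16 were past it, and chance alone gives about 1 in 20. Among genes of neurons, Cacna2d1 was lowest in NPP_solvent 2 (3.94 CPM), far under the other NPP libraries, and Nppb, a peptide gene of itch-sensing neurons, was highest in NPP_solvent 3 (22.3 CPM), without which its log2 fold change was 0.47 instead of 1.93. Among immune and stress genes, Il1b was highest in NPP_herb 2 (6.38 CPM), the macrophage receptor gene Csf1r was lowest in NPP_herb 2 (21.1 CPM), and the B cell gene Cd79a (4.47 CPM) and the chaperone gene Hspa5 (686 CPM) were highest in Sham_solvent 3.

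The collagen gene Col5a1 was lowest in Sham_solvent 3 (36.8 CPM). In Sham_solvent 1, the hyaluronan-degrading Cemip was highest (10.5 CPM) and the clock gene Per3 lowest (1.28 CPM). The red cell anion exchanger gene Slc4a1 was highest in NPP_herb 3 (6.93 CPM), and the hemoglobin share of reads stood apart in NPP_herb 3 (0.0751%) and in Sham_solvent 3 (0.0815%). Sham_solvent 2 had the most counted reads (50.3 M) and the most genes with a read (21442). Sham_solvent 1 had the highest share of ribosomal RNA reads among Sham libraries (0.398%), and NPP_solvent 2 the lowest share in the 10 most abundant genes among NPP libraries (10.8%).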

How the results depend on the processing

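In none of 27 alternatives, 12 of which left out 1 library each, was a gene called for NPP against Sham. The smallest adjusted p was 0.128 with DESeq2. Among the edgeR fits with 1 library left out it was 0.404, without Sham_solvent replicate 1. Leaving out NPP_herb 3 and Sham_solvent 3 together, chosen after seeing their hemoglobin reads, also gave 0 calls. The count at an unadjusted p under 0.05 (425 genes) was 669 without a filter on low counts, 779 with the gene length slope as a covariate, 983 with the Y-linked level as a covariate, and 307 to 795 with a library left out (795 without NPP_herb replicate 2 and 723 without Sham_solvent replicate 2). With the replicate number as a block it was 337. The residual correlation of same-numbered NPP and Sham libraries of 1 treatment ran from -0.32 to 0.10 over 6 pairs. That check looked only for libraries that deviate together, and it cannot decide whether the numbers pair the libraries. DESeq2 called 10 of 16446 genes for the interaction of state and treatment, against 0 with edgeR. None of the 24 genes with the smallest p changed sign in any alternative, which their choice by p on these same libraries favours. Of 86 genes recomputed, 14 changed sign in at least 1 alternative.

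In solvent libraries alone the log2 fold change turned to 0.97 for Isg15, -1.45 for Slc4a1, -0.12 for Fos, 0.18 for Gbp4 and 0.11 for Ifit3. In herb libraries alone it turned to -0.025 for Stat3, 0.00798 for Nefh, -0.13 for P2rx3, -0.017 for Scn3b, 0.55 for S100a8, 0.50 for S100a9, 0.29 for Aldh1a2, 0.30 for Cemip and 0.60 for Cd79a. Without the treatment covariate Isg15 was at 0.47, and with the Y-linked covariate Slc4a1 was at -0.18. With a library left out, Slc4a1 ran from -0.25 to 1.91 and Cd79a from -0.90 to 0.087. Likewise the NPP minus Sham difference of the hemoglobin share ran from -0.00747 to 0.0159 percentage points and that of the length slope from -0.0065 to 0.0558. The cause was not tested. Of 1026 list medians recomputed, 27 moved by more than 1 SD between libraries, 19 of them in single treatments. Depth limits the genes near 1 CPM, such as Sprr1a and Oprm1.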

Other observations

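Several gene groups outside the injury response also split by treatment. Guanylate-binding and immunoproteasome genes, which respond to interferon gamma, were above 0 in 0 of 20 in herb libraries (median log2 fold change -0.84) and in 17 of 20 in solvent libraries (median 0.29). Glucocorticoid-responsive genes were above 0 in 14 of 16 in herb (median 0.29) and in 2 of 16 in solvent libraries (median -0.13), and fibroblast and matrix genes in 21 of 22 in herb (median 0.33) and in 9 of 22 in solvent libraries (median -0.30). No member of these lists had an unadjusted p under 0.05 in edgeR's test over all 12 libraries.

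Y-linked genes summed to 130 to 177 CPM in all 12 NPP and Sham libraries, while Ctrl 2 had 1.56 CPM and Ctrl 3 had 4.75 CPM. Nppb, at 0.697 to 22.3 CPM in NPP and 0.682 to 1.77 CPM in Sham libraries, had 47.0 CPM in Ctrl 2 and 59.5 CPM in Ctrl 3, and Vgf was likewise highest of all 18 libraries in Ctrl 3 (152 CPM).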
